A study of Homo sapiens with 12 samples.

Results

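The 39 genes described here encode proteins of the centromere, the kinetochore and the mitotic spindle, and were taken by symbol from a given list. All 39 were found among the 34886 gene symbols of the mRNA table. They comprise 12 constitutive centromere proteins, 15 proteins of the outer kinetochore, and 12 proteins of the spindle checkpoint, the chromosomal passenger complex and the spindle. Their mRNA was compared between H446 cells given 40 µM CAPE (caffeic acid phenethyl ester) for 8 h and H446 cells given an equal volume of DMSO, the vehicle, with 3 libraries per group. H446 (NCI-H446) is a human line derived from small cell lung cancer, and CAPE is a phenolic ester of propolis. The labels do not say whether replicates were separate cultures, so p-values measure only the spread between these libraries, which may be technical.

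The centromere is marked by nucleosomes that carry the histone H3 variant CENPA. On these sits the constitutive centromere-associated network (CCAN), which is present through the cell cycle and holds the outer kinetochore. The outer kinetochore assembles as cells enter mitosis. It binds spindle microtubules through the NDC80 complex and recruits the spindle checkpoint, which delays anaphase until chromosomes are attached. Many of the genes for mitotic proteins are transcribed mainly in G2 and mitosis, a pattern known to depend on a promoter element called the cell cycle genes homology region (CHR), often with CCAAT boxes nearby. Since whole cultures were sequenced, fewer cells in G2 or mitosis and less mRNA per such cell cannot be told apart.

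The libraries held 17569997 to 17993349 estimated counts in CAPE and 17770295 to 20917508 in DMSO. DMSO replicate 3 (DMSO 3) stood apart from all others, with 16207 genes detected against 17864 to 18587, and a scaling factor of 0.699 against 1.07 to 1.09. Results are therefore given with all 6 libraries and with the 5 libraries that remain without DMSO 3, where CAPE has 3 and DMSO 2. Of 9 markers of small cell lung cancer or neuroendocrine cells, 8 stayed under 1 TPM (a level per transcript length) in every library. NEUROD1, INSM1 and CHGA were among the 8, although the labels call the line small cell lung cancer. ENO2, the remaining one, gave nearly all of the summed marker level of 135 to 146 TPM in CAPE and 19.3 to 32.0 TPM in DMSO. The epithelial keratins KRT8 and KRT18 were abundant. EPCAM, the other epithelial marker listed, was low, with 2.26, 2.96 and 2.63 TPM in CAPE and 1.73, 2.26 and 1.16 TPM in DMSO. The 5 leukocyte markers summed to 1.22 to 2.45 TPM in CAPE and 0.196 to 1.07 TPM in DMSO, with CD3E at 0 throughout. Fibroblast markers (6 genes) summed to 49.8 to 58.7 TPM in CAPE and 14.1 to 50.4 TPM in DMSO, the lowest in DMSO 3, and their part in the results was not tested.

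Without DMSO 3, 11 of the 12 spindle, checkpoint and passenger complex genes, all but SGO1, were lower with CAPE. Their median log2 fold change was -0.98. Of the 11 genes of the constitutive centromere network built on CENPA, 3 were lower and 2 higher in that fit, at a median of -0.03. The largest fall of the 11 was that of CENPI, at -0.56, and CENPA itself was at -1.49. With 6 libraries, 7 of the 39 genes were lower and none higher at an adjusted p under 0.05 (edgeR quasi-likelihood test), where 0.456% of all 13595 genes tested were lower and 1.49% higher. The 7 were CENPA, NDC80, BUB1B, INCENP, PSRC1, TPX2 and NUSAP1. Without DMSO 3, 21 were lower and 4 higher, 25 of the 39, where 20.8% of 13919 genes were lower and 20.4% higher, so a single call in that fit says little and the sizes matter more. Of the 39, 9 were both called and at least 2-fold lower in that fit, against 1.33% of all genes. All 7 calls of the 6-library fit were kept among the 21. With 6 libraries on the log2(TPM + 1) scale (limma), PSRC1 was the single one of the 7 that still passed, and BIRC5 passed as well. None of the 39 passed when any library other than DMSO 3 was left out (CAPE 1, CAPE 2, CAPE 3, DMSO 1 or DMSO 2). In those fits 0 to 17 of all 13793 to 13883 genes tested passed, in either direction. An unadjusted edgeR p under 0.05 was seen there in 10 to 15 of the 39 and in 1099 to 2770 of all genes.

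**Figure D1:**
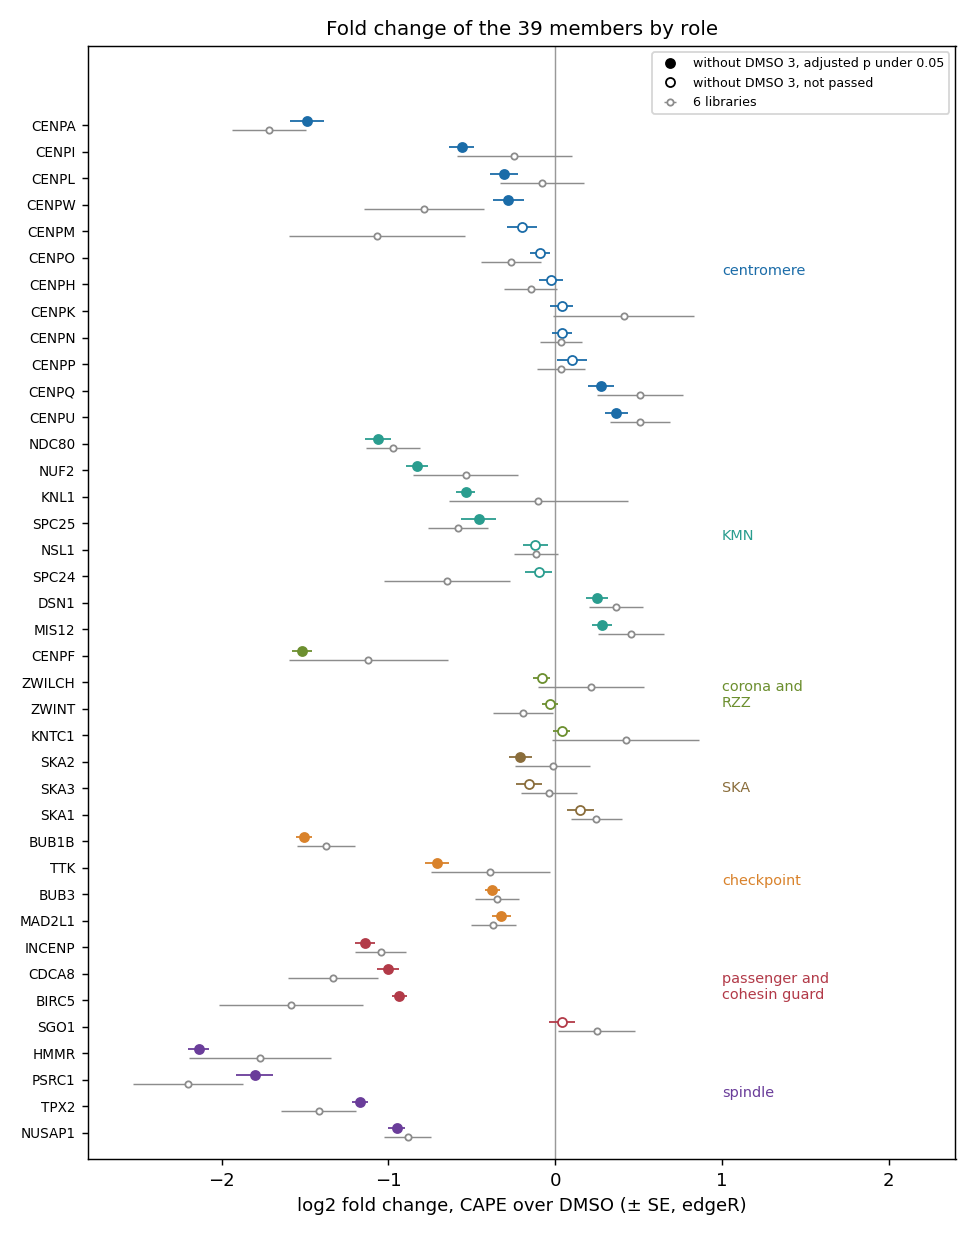
Log2 fold change of each gene, CAPE over DMSO, with its SE, by role; coloured points are the fit without DMSO 3 (filled where the adjusted p is under 0.05) and grey points the fit with 6 libraries. Spindle genes lie at -2.14 to -0.95 without DMSO 3, while 10 of the 11 CCAN genes lie within -0.31 and 0.37 and CENPI lies at -0.56.

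The sizes of the fold changes were set side by side for the 3 classes. Without DMSO 3 the median log2 fold change was -0.06 over the 12 centromere genes, -0.12 over the 15 outer kinetochore genes and -0.98 over the 12 checkpoint, passenger and spindle genes, beside 0.00346 over all genes tested. Of the centromere genes 4 were lower and 2 higher, of the outer kinetochore genes 6 and 2, and of the checkpoint, passenger and spindle genes 11 and 0. Over all 13919 genes tested in that fit, 20.8% were lower and 20.4% higher. At least 2-fold falls were seen in 1 of 12, 2 of 15 and 6 of 12 of these genes, against 1.33% of all genes tested. CDCA8 lay just inside that limit at -1.003, and NUSAP1 and BIRC5 just outside at -0.95 and -0.94. With 6 libraries the medians were -0.11, -0.10 and -1.19, beside -0.01 over all genes, but on the log2(TPM + 1) scale the centromere and outer kinetochore medians turned positive (0.29 and 0.41) and the checkpoint, passenger and spindle median was -0.60, beside 0.33 over all genes. Without DMSO 3 the medians on that scale were -0.04, -0.09 and -0.97. By library, the median of the checkpoint, passenger and spindle genes relative to the mean of DMSO 1 and DMSO 2 was -1.01, -0.95 and -0.99 log2 units in CAPE 1, CAPE 2 and CAPE 3 and -0.14 in DMSO 3. The same median for the centromere genes was -0.10, -0.04 and -0.04 in the CAPE libraries and 0.11 in DMSO 3. No test of the difference between these classes was made.

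Promoters of the genes with the largest falls and of the 4 that rose are shown so that CHR and CCAAT letters can be read where present. The 4 that rose held no CHR match. RefSeq promoter windows (GRCh38.p14, from 250 bases before to 50 after the start) were found for 30 of the 39 genes, all but CENPH, CENPL, CENPM, KNL1, KNTC1, BUB3, TTK, BIRC5 and TPX2. The CHR was searched as TTTGAA and TTCGAA and the CCAAT box as CCAAT, on both strands (the other strand of CCAAT reads ATTGG, and that of TTTGAA reads TTCAAA), and the letters of both, which can overlap, are in capitals below. The stretches run from 100 bases before the start to 50 after it, 5′ to 3′ on the strand of the gene. The first 6 belong to the matched genes with the largest falls without DMSO 3.
HMMR, chr5:163460532-163460681, plus strand: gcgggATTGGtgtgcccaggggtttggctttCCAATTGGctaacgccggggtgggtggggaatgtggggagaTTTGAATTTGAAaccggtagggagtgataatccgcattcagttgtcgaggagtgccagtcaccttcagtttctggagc
PSRC1, chr1:109283096-109283245, minus strand: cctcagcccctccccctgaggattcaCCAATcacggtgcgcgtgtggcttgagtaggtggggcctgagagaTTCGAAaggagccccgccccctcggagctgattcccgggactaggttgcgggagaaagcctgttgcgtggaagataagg
CENPF, chr1:214603095-214603244, plus strand: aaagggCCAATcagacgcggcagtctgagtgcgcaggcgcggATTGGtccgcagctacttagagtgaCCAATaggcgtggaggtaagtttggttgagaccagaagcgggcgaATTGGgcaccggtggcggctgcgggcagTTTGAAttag
BUB1B, chr15:40160969-40161118, plus strand: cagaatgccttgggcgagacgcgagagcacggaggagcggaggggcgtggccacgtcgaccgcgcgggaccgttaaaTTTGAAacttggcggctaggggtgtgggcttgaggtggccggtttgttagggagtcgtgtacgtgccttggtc
CENPA, chr2:26785956-26786105, plus strand: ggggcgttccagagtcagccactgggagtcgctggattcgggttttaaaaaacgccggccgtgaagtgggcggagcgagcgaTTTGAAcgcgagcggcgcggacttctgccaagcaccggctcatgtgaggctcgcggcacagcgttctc
INCENP, chr11:62123911-62124060, plus strand: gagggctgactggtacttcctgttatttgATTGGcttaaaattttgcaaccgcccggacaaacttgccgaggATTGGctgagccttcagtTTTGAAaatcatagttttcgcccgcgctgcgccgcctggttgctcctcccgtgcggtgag

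The next 4 belong to the genes that rose without DMSO 3, with the first of 2 annotated starts for MIS12.
CENPU, chr4:184734047-184734196, minus strand: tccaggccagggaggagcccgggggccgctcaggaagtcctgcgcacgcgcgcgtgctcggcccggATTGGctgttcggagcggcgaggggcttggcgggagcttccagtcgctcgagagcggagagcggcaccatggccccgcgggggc
MIS12, chr17:5486274-5486423, plus strand: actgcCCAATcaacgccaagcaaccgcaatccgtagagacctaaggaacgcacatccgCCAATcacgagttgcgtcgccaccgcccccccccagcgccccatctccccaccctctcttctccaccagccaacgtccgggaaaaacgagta
CENPQ, chr6:49463270-49463419, plus strand: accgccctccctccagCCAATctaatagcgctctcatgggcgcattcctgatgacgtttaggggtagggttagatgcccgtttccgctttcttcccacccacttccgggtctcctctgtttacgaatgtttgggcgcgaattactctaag
DSN1, chr20:36773714-36773863, minus strand: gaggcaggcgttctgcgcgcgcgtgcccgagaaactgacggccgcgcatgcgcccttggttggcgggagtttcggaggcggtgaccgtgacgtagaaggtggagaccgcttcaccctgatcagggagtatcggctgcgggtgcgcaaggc

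All 8 matched genes that fell at least 2-fold held a CHR letter match, and so did 5 of 7 that fell by less, 6 of 11 that did not pass and 0 of 4 that rose. By class, a match was found in 4 of 9 matched centromere genes, 7 of 13 of the outer kinetochore and 8 of 8 of the checkpoint, passenger and spindle genes. Of all 35116 promoter windows of the same length, 16.4% held one, and 5.01% held one starting within 50 bases of the start. Counted by gene, these were 5336 and 1705 of all 27305 genes with a window. All 19 genes of the 39 that had any match held one within 50 bases, and SPC25 held another 247 bases before the start. In CENPA, BUB1B and CDCA8 the match began 18, 23 and 23 bases before the start. CCAAT was found in 6 of the 8 genes that fell at least 2-fold and in 3 of the 4 that rose, against 34.6% of all windows. By gene it was found in 10846 of 27305. These are matches of letters, not sites, and the split by response was made with the values known.

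Within the centromere class CENPA, the histone that defines the site, was the single gene to pass with 6 libraries. CENPA (chromosome 2, 26786056 to 26794589, GRCh38) measured 8.93, 8.03 and 7.87 CPM in CAPE 1 to 3, against 23.5, 22.9 and 35.2 CPM in DMSO 1 to 3 (CPM, the count scaled to the library's TMM-adjusted total). The groups did not overlap, and the highest value was in DMSO 3. Its log2 fold change was -1.71 (SE 0.22, adjusted p = 0.0256; -1.09 and 0.131 by limma on log2(TPM + 1), where the call was lost), and -1.49 without DMSO 3 (SE 0.10, adjusted p = 2.57e-08). Per length, CENPA measured 15.1, 13.4 and 12.6 TPM in CAPE, against 33.4, 35.0 and 23.8 TPM in DMSO.

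None of the 11 CCAN genes passed with 6 libraries, where 1 had an unadjusted p under 0.05. In the CENP-HIKM subcomplex, which links the inner centromere to the rest of the network, CENPI measured 22.1, 24.8 and 23.6 CPM in CAPE, against 35.2, 33.9 and 14.4 CPM in DMSO. The CAPE libraries lay below DMSO 1 and DMSO 2 but above DMSO 3, and without DMSO 3 its log2 level fell by 0.56 (SE 0.08, adjusted p = 3.26e-05). Its partners CENPH and CENPK had log2 fold changes of -0.03 and 0.04 in that fit (SE 0.07 each), and did not pass. CENPK measured 56.9, 63.4 and 61.3 CPM in CAPE, against 55.4, 62.1 and 19.0 CPM in DMSO, so that its value of 0.41 with 6 libraries came with the low level in DMSO 3. CENPM, the fourth subunit, measured 19.3, 18.3 and 17.6 CPM in CAPE, against 21.8, 20.4 and 73.8 CPM in DMSO. Its log2 fold change was -1.07 with 6 libraries (SE 0.53, adjusted p = 0.346) and -0.20 without DMSO 3 (SE 0.09, adjusted p = 0.0847).

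CENPL and CENPN form a pair in which CENPN reads the CENPA nucleosome. CENPN did not pass in either fit, with 55.2, 58.4 and 54.8 CPM in CAPE and 53.9, 55.0 and 55.3 CPM in DMSO, and CENPL fell by 0.31 without DMSO 3 (SE 0.08, adjusted p = 0.00957). CENPW, the histone-fold partner of CENPT, fell by 0.28 in that fit (SE 0.09, adjusted p = 0.0233). In the CENP-O group, which also docks the mitotic kinase PLK1 through CENPU, 2 genes rose without DMSO 3, where 20.4% of all genes tested did. CENPU measured 49.99, 50.5 and 45.7 CPM in CAPE, against 36.6, 38.8 and 27.3 CPM in DMSO, and CENPQ 26.7, 29.7 and 27.6 CPM in CAPE, against 22.7, 23.4 and 12.8 CPM in DMSO. All CAPE values of these genes exceeded all DMSO values. CENPU rose by 0.37 (SE 0.07, adjusted p = 6.79e-04) and CENPQ by 0.27 (SE 0.08, adjusted p = 0.0123) without DMSO 3, while with 6 libraries their values of 0.51 each did not pass (adjusted p = 0.258 and 0.348). CENPO and CENPP of the same group did not pass in either fit, at -0.09 and 0.10 without DMSO 3, and CENPP measured 17.7, 17.5 and 18.7 CPM in CAPE and 16.4, 16.97 and 19.2 CPM in DMSO. On the TPM scale CENPO averaged 33.0 in CAPE and 27.2 in DMSO 1 and DMSO 2, the opposite direction to its counts. Per length CENPP had the lowest level of the class in DMSO 1 and DMSO 2, and measured 11.1, 11.3 and 13.6 TPM in CAPE and 11.9, 11.2 and 6.66 TPM in DMSO.

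**Figure D2:**
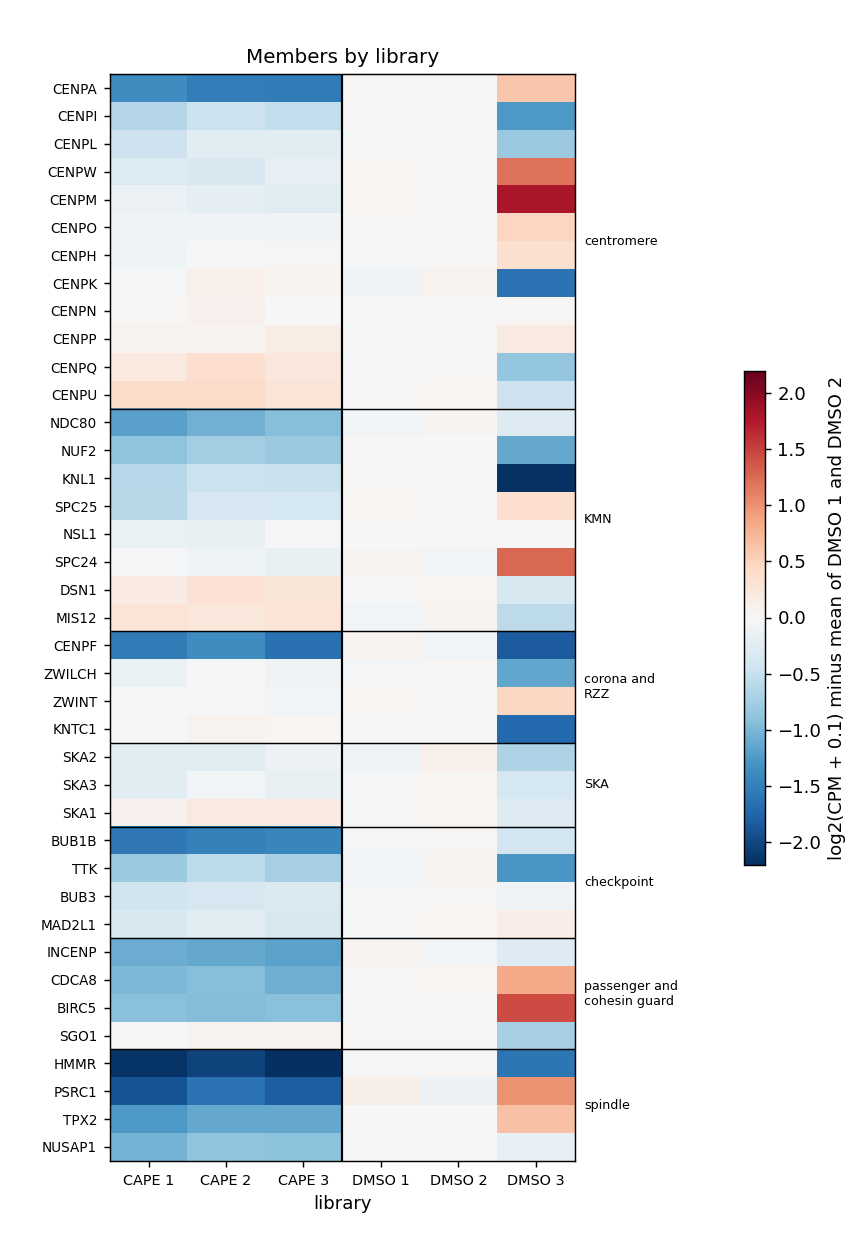
Each gene (row) in each library (column) as log2(CPM + 0.1) minus the mean of DMSO 1 and DMSO 2; blue is lower and red higher, and lines separate the roles and the CAPE from the DMSO libraries. DMSO 3 departs from DMSO 1 and DMSO 2 in both directions, lowest in KNL1 and highest in CENPM.

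Among the outer kinetochore genes 3 of the 4 genes of the microtubule-binding NDC80 complex fell without DMSO 3, and 2 of 3 of the MIS12 complex, which anchors it, rose slightly. In that fit 20.8% of all genes tested were lower and 20.4% higher. NDC80, which contacts microtubules directly, measured 23.4, 25.8 and 27.8 CPM in CAPE, against 51.3, 55.7 and 44.1 CPM in DMSO. No value overlapped in CPM, and NDC80 was the single outer kinetochore gene to pass with 6 libraries, at -0.97 (SE 0.16, adjusted p = 0.0439), and at -1.06 without DMSO 3 (SE 0.08, adjusted p = 6.18e-08). In TPM the groups overlapped, with 27.2, 30.3 and 30.1 TPM in CAPE and 48.4, 58.4 and 19.5 TPM in DMSO, and with 6 libraries the value on log2(TPM + 1) was -0.38 and did not pass (limma adjusted p = 0.615). NUF2, its dimer partner, measured 31.2, 33.9 and 32.9 CPM in CAPE, against 57.7, 58.0 and 26.4 CPM in DMSO. CAPE lay between DMSO 3 and the other DMSO libraries, and NUF2 fell by 0.83 without DMSO 3 (SE 0.06, adjusted p = 1.10e-07). SPC25, which joins the complex to the MIS12 complex, measured 11.9, 14.2 and 14.0 CPM in CAPE, against 18.9, 17.8 and 23.5 CPM in DMSO, and fell by 0.46 without DMSO 3 (SE 0.10, adjusted p = 0.00276). Its partner SPC24 did not pass, with 24.0, 23.1 and 22.1 CPM in CAPE and 25.6, 23.7 and 59.3 CPM in DMSO. Per length, the 4 subunits averaged 29.2 (NDC80), 53.0 (NUF2), 33.1 (SPC24) and 29.9 TPM (SPC25) in CAPE, against 53.4, 87.2, 38.5 and 39.1 TPM in DMSO 1 and DMSO 2.

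MIS12 measured 65.1, 63.1 and 65.2 CPM in CAPE, against 50.8, 55.2 and 35.3 CPM in DMSO, and DSN1, a subunit of the same complex, 51.4, 57.2 and 54.8 CPM in CAPE, against 44.4, 46.9 and 35.7 CPM in DMSO. Every CAPE value lay above every DMSO value. Without DMSO 3 MIS12 rose by 0.28 (SE 0.06, adjusted p = 0.00184) and DSN1 by 0.25 (SE 0.07, adjusted p = 0.00707), and neither passed with 6 libraries (0.45 and 0.36, adjusted p = 0.327 and 0.328). NSL1, also of the MIS12 complex, was at -0.12 without DMSO 3 and did not pass in either fit. KNL1, the scaffold that receives the checkpoint kinases, measured 57.6, 64.0 and 63.1 CPM in CAPE, against 90.2, 87.9 and 19.7 CPM in DMSO. It fell by 0.54 without DMSO 3 (SE 0.06, adjusted p = 3.92e-06), but was at -0.10 with 6 libraries, where DMSO 3 held the lowest value of all. In TPM the difference of KNL1 was smaller, at 24.6 in CAPE and 28.8 in DMSO 1 and DMSO 2.

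CENPF, a large coiled-coil protein of the outer corona, was the single corona gene to pass without DMSO 3. It measured 165, 184 and 153 CPM in CAPE, against 496, 460 and 134 CPM in DMSO. All CAPE libraries were far below DMSO 1 and DMSO 2, whereas DMSO 3 was lower still. Without DMSO 3 the log2 level of CENPF fell by 1.52 (SE 0.06, adjusted p = 8.40e-11) and did not pass with 6 libraries (-1.12, SE 0.48, adjusted p = 0.319). ZWILCH and KNTC1, subunits of the Rod-Zw10-Zwilch complex that delivers dynein and checkpoint proteins, and ZWINT, which helps to recruit it, did not pass in either fit. Without DMSO 3 they were at -0.08, 0.04 and -0.03 (SE 0.05 each). ZWILCH measured 105, 116 and 110.0 CPM in CAPE and 114, 119 and 52.7 CPM in DMSO, and KNTC1 86.6, 91.0 and 88.6 CPM in CAPE and 85.5, 86.7 and 26.1 CPM in DMSO. Both were low in DMSO 3, whereas ZWINT was high there, with 123, 123 and 119.9 CPM in CAPE and 129, 120.1 and 170.2 CPM in DMSO. Of the SKA complex, which couples kinetochores to depolymerising microtubules, SKA2 fell by 0.21 without DMSO 3 (SE 0.07, adjusted p = 0.0238), with 65.4, 65.3 and 70.9 CPM in CAPE and 71.6, 83.5 and 48.4 CPM in DMSO. SKA1 measured 24.4, 26.1 and 25.8 CPM in CAPE, against 22.2, 23.4 and 18.6 CPM in DMSO, and SKA3 25.9, 29.1 and 26.9 CPM in CAPE, against 29.5, 31.2 and 23.3 CPM in DMSO. Neither passed in either fit.

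All 4 checkpoint genes were lower without DMSO 3, where 20.8% of all genes tested were, and the sizes of their falls differed widely. BUB1B (BubR1), the inhibitor of the anaphase-promoting complex, had the largest fall, with 74.8, 79.5 and 82.2 CPM in CAPE, against 219, 228 and 167 CPM in DMSO. The groups did not overlap in CPM, at a log2 fold change of -1.38 (SE 0.17, adjusted p = 0.0254), and of -1.51 without DMSO 3 (SE 0.05, adjusted p = 1.17e-11). In TPM they overlapped, since DMSO 3 lay below every CAPE library, with 47.2, 49.6 and 55.3 TPM in CAPE and 104.6, 119.5 and 34.6 TPM in DMSO. With 6 libraries the value of BUB1B on log2(TPM + 1) was -0.57 and did not pass (limma adjusted p = 0.551). TTK (Mps1), the kinase that starts checkpoint signalling, measured 39.9, 47.4 and 42.5 CPM in CAPE, against 67.5, 73.5 and 28.8 CPM in DMSO, and fell by 0.71 without DMSO 3 (SE 0.07, adjusted p = 2.30e-06). BUB3, the adaptor of the BUB kinases, measured 161, 168 and 175 CPM in CAPE, against 215, 220 and 205 CPM in DMSO. MAD2L1 (Mad2), the switch protein of the checkpoint, measured 76.4, 82.4 and 77.0 CPM in CAPE, against 94.8, 101 and 109 CPM in DMSO. In CPM neither BUB3 nor MAD2L1 overlapped between groups, and their falls were small, at 0.38 and 0.32 without DMSO 3 (SE 0.05 and 0.06, adjusted p = 1.15e-05 and 3.04e-04). With 6 libraries they did not pass (adjusted p = 0.285 and 0.272). In TPM both overlapped, since DMSO 3 was the lowest library. BUB3 measured 182, 177 and 179 TPM in CAPE and 243, 235 and 90.0 TPM in DMSO. MAD2L1 measured 58.8, 63.4 and 54.8 TPM in CAPE and 69.8, 79.2 and 44.3 TPM in DMSO. On log2(TPM + 1) with 6 libraries BUB3 was at 0.05 and MAD2L1 at -0.09.

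The passenger complex carries Aurora B kinase to the centromere to correct faulty attachments. All 3 of its subunits listed here were lower without DMSO 3, where 20.8% of all genes tested were. INCENP, the activator of Aurora B, measured 45.8, 44.5 and 42.8 CPM in CAPE, against 102, 93.3 and 79.9 CPM in DMSO, a log2 fold change of -1.05 (SE 0.15, adjusted p = 0.0335), and of -1.14 without DMSO 3 (SE 0.06, adjusted p = 1.41e-09). In TPM DMSO 3 was the lowest library for INCENP, with 43.0, 46.4 and 42.9 TPM in CAPE and 99.7, 92.7 and 34.0 TPM in DMSO, and the 6-library value on log2(TPM + 1) was -0.62 (limma adjusted p = 0.521). CDCA8 (borealin) measured 34.1, 35.2 and 32.2 CPM in CAPE, against 65.9, 69.3 and 121 CPM in DMSO, and BIRC5 (survivin) 94.5, 92.7 and 95.3 CPM in CAPE, against 180, 179 and 487 CPM in DMSO. No CAPE value reached a DMSO value in CPM, and DMSO 3 was the highest in CDCA8 and BIRC5. Without DMSO 3 they fell by 1.003 and 0.94 (SE 0.06 and 0.04, adjusted p = 1.30e-08 and 4.85e-10), and with 6 libraries their larger values of -1.33 and -1.58 did not pass (adjusted p = 0.0812 and 0.162) in edgeR but passed in the DESeq2 Wald test (adjusted p = 6.49e-04 and 0.00948). SGO1 (shugoshin), the guard of centromeric cohesin, did not pass in either fit. It measured 23.8, 25.3 and 25.2 CPM in CAPE and 24.5, 23.5 and 14.5 CPM in DMSO, at 0.04 without DMSO 3 (SE 0.08, adjusted p = 0.703).

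The 2 largest falls without DMSO 3 were in spindle genes. HMMR (RHAMM), a microtubule-associated protein also known as a hyaluronan receptor, measured 22.1, 24.0 and 21.5 CPM in CAPE, against 97.4, 101 and 33.0 CPM in DMSO. No value overlapped in CPM, but DMSO 3 lay close to the CAPE libraries, and in TPM it lay below them, with 11.96, 12.6 and 14.0 TPM in CAPE and 52.5, 56.1 and 9.98 TPM in DMSO. In edgeR the gene passed without DMSO 3 (-2.14, SE 0.06, adjusted p = 5.49e-12) and not with it (-1.77, SE 0.43, adjusted p = 0.128), while the DESeq2 Wald test called it with 6 libraries (adjusted p = 0.00171). PSRC1, which promotes microtubule growth at the spindle, measured 7.61, 9.25 and 8.08 CPM in CAPE, against 31.4, 26.5 and 57.1 CPM in DMSO. Here DMSO 3 was the highest, and PSRC1 passed in both fits, at -2.202 (SE 0.33, adjusted p = 0.0353) and, without DMSO 3, at -1.80 (SE 0.11, adjusted p = 8.45e-09). TPX2, the activator of Aurora A kinase at the spindle, measured 109, 120 and 119 CPM in CAPE, against 263, 258 and 407 CPM in DMSO, with log2 fold changes of -1.42 (SE 0.22, adjusted p = 0.0407) and, without DMSO 3, -1.17 (SE 0.05, adjusted p = 9.74e-11). NUSAP1, a microtubule-bundling protein, measured 105, 116 and 115 CPM in CAPE, against 217, 216 and 190 CPM in DMSO, with log2 fold changes of -0.89 (SE 0.14, adjusted p = 0.0416) and, without DMSO 3, -0.95 (SE 0.05, adjusted p = 1.62e-09). On log2(TPM + 1) with 6 libraries TPX2 was at -1.03 and NUSAP1 at -0.41, and neither passed (limma adjusted p = 0.0647 and 0.621). NUSAP1 measured 126, 154 and 130.4 TPM in CAPE, against 278, 255 and 83.8 TPM in DMSO, where DMSO 3 was again the lowest. Per length, NUSAP1 had the highest level of the 39 in DMSO 1 and DMSO 2, where it averaged 266 TPM, and it averaged 137 TPM in CAPE.

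**Figure D3:**
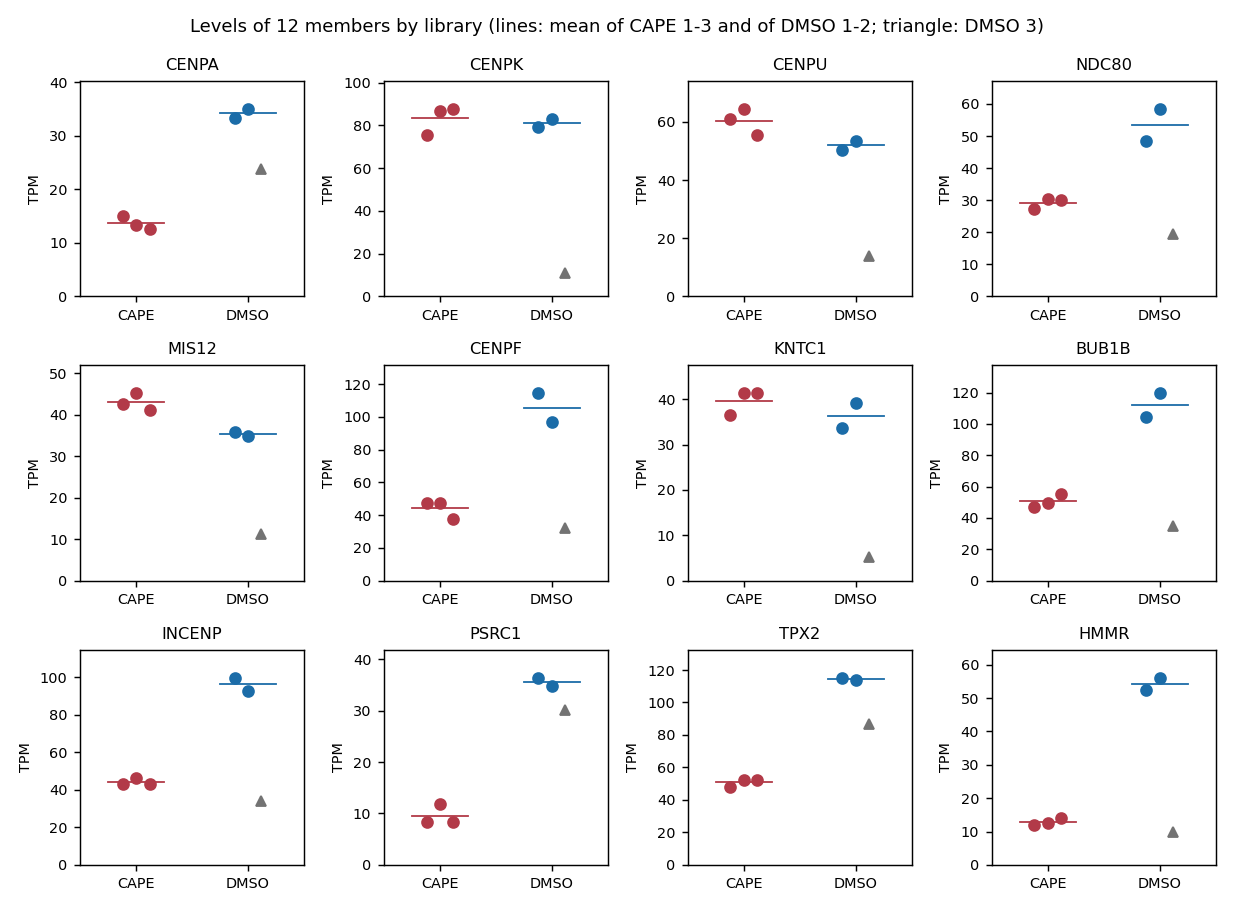
Level in TPM of 12 genes in each library, with the mean of CAPE 1 to 3 and of DMSO 1 and 2 as lines and DMSO 3 as a triangle. CENPA, NDC80, CENPF, BUB1B, INCENP, PSRC1, TPX2 and HMMR are lower in CAPE than in DMSO 1 and 2, CENPU and MIS12 are higher, and CENPK and KNTC1 lie close together.

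Summed over the 39 genes, the level per length was 1858, 2016 and 1906 TPM in CAPE, against 2645, 2643 and 1245 TPM in DMSO 1 to 3. DMSO 3 thus held less of these transcripts per length than any CAPE library, although DMSO 1 and DMSO 2 held more. That order is one of TPM, a scale that also moved other genes. With 6 libraries the median log2 fold change over all genes tested was 0.33 on log2(TPM + 1), against -0.01 on counts. The CAPE values lay below all DMSO values in CPM in 17 of the 39 genes, where 20.6% of all genes tested did so, and in 25 of the 39 without DMSO 3, where 30.7% did. In CPM DMSO 3 was below the mean of DMSO 1 and DMSO 2 in 24 of the 39. Its median deviation from that mean was -0.29 log2 units over the 39, beside 0.0034 over all genes tested. Across the 39 its deviation had a Spearman correlation of -0.41 with relative transcript length, a description over genes that share 6 libraries. Long transcripts such as KNL1 (-2.17), CENPF (-1.83) and KNTC1 (-1.72) were low in DMSO 3, and the short CENPM (1.80) and CENPW (1.19) were high. BIRC5, with a relative length of 1.16 (1 is the median gene), was also high there (1.44). When each library was adjusted for its trend on transcript length, 3 of the 39 passed, where 408 of all 13595 genes tested passed in either direction. The median of the checkpoint, passenger and spindle genes was then -1.16.

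**Figure D4:**
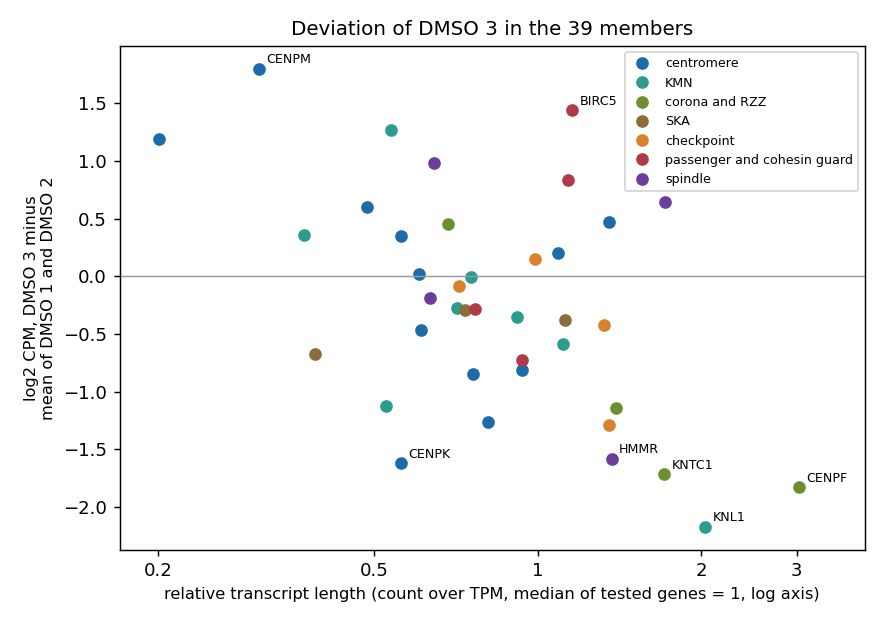
Deviation of DMSO 3 from the mean of DMSO 1 and DMSO 2 in log2 CPM, against relative transcript length on a log axis, for each of the 39 genes, coloured by role. The 3 longest transcripts, CENPF, KNL1 and TPX2, lie at -1.83, -2.17 and 0.64, and genes shorter than the median of 1 lie on both sides of 0.

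Beyond the 39, 45 other genes of the pathway were counted from a list. With 6 libraries 6 were lower and 0 higher, and without DMSO 3 there were 26 lower, 2 higher and 17 that did not pass, the median being -0.38. Over all genes tested, 0.456% were lower and 1.49% higher with 6 libraries, and 20.8% and 20.4% without DMSO 3. The 3 lowest p-values with 6 libraries were those of FAM83D, PRC1 and AURKA. FAM83D, which recruits casein kinase to the spindle, measured 24.2, 25.6 and 20.6 CPM in CAPE, against 79.2, 76.8 and 119 CPM in DMSO, at -1.96 (SE 0.23, adjusted p = 0.0213). PRC1, a bundler of the central spindle, measured 116, 107 and 123 CPM in CAPE, against 240, 239 and 264 CPM in DMSO (-1.10, SE 0.14, adjusted p = 0.0256). AURKA, the kinase that TPX2 activates, measured 33.7, 36.6 and 32.2 CPM in CAPE, against 107, 100.2 and 175 CPM in DMSO (-1.90, SE 0.25, adjusted p = 0.0265). In CPM the groups did not overlap in any of these. In TPM those of PRC1 did, with 134, 111 and 123 TPM in CAPE and 250, 254 and 109 TPM in DMSO. SPAG5, KNSTRN and DLGAP5 were the other 3 that passed. Without DMSO 3 the lowest p-value was that of CDC20, the activator of the anaphase-promoting complex that the checkpoint holds back, and the largest fall that of CENPE, a kinetochore motor, both named after their values were seen. CDC20 measured 59.8, 60.1 and 57.2 CPM in CAPE, against 225, 220.3 and 714 CPM in DMSO, at -1.92 without DMSO 3 and -2.71 with 6 libraries, where it did not pass (SE 0.52, adjusted p = 0.0700). CENPE measured 23.1, 30.9 and 27.7 CPM in CAPE, against 119, 113 and 14.4 CPM in DMSO, at -2.10 without DMSO 3 and -1.60 with 6 libraries (SE 0.72, adjusted p = 0.332).

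Markers of proliferating cells moved beside these results. Without DMSO 3, MKI67 and TOP2A, which are made mostly in late cell cycle phases, were at -1.03 and -1.54, and PCNA, a replication clamp, was at 0.06. With 6 libraries the 3 were at -0.74, -1.30 and -0.18, and none passed (edgeR adjusted p = 0.323, 0.0880 and 0.625). Their part in the results was not tested. Of the 39 genes, 16 overlap another annotated gene, such as HMMR with HMMR-AS1 and SGO1 with SGO1-AS1. Whether the counting used strand is not given in the sources used here, so reads of such pairs may not be told apart.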

How the data were processed

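mRNA libraries of 3 CAPE and 3 DMSO samples were used, and the miRNA libraries of the series were not used here. The authors deposited estimated counts and TPM per gene symbol, made with bcl2fastq and kallisto 0.46.1 on GRCh38 per the submitters' processing notes. The annotation release, and how transcripts were summed to genes, are items not given in the sources used here. The estimated counts as deposited were whole numbers.

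Counts were fitted in R 4.3.3 with edgeR 4.0.16 (filterByExpr, TMM, quasi-likelihood F test, Benjamini-Hochberg adjustment over all genes tested, call at 0.05), with 6 libraries and without DMSO 3, and tested on simulated data. The SE is the absolute log2 fold change divided by the square root of F. Medians of classes carry no test. Relative length is count over TPM. Alternatives were DESeq2 1.42.0, other scaling and filters, limma 3.58.1 on log2(TPM + pseudocount), sample weights, a length adjustment, a replicate block and leaving out each library.

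The 39 genes, the 45 pathway genes, the marker lists and the motifs were chosen with earlier results of these data known. Values in every library were given for the 2 genes of each of 7 roles with the smallest p, those with the extreme fold changes without DMSO 3, and those with a positive fold change, and others were added with values seen. Some genes of these lists are not reported here by name. Chromosome coordinates and promoters are RefSeq, GRCh38.p14.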

Additional observations from a re-analysis of the deposited data

How the results depend on the processing

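With 6 libraries, 265 genes of all tested were called, 7 of the 39 lower and 0 higher, and 6 pathway genes lower. Leaving out 1 library at a time gave 0 to 5731 genes called, 0 to 21 of the 39 lower, 0 to 4 higher, 0 to 26 pathway genes lower and 0 to 2 higher, the upper ends without DMSO 3. The class medians then ranged from -0.15 to -0.032 (centromere), -0.12 to 0.042 (outer kinetochore) and -1.21 to -0.98 (checkpoint, passenger and spindle). Single genes that changed sign ranged from -0.21 to 0.16 (SKA2), -0.31 to 0.064 (CENPL), -0.018 to 0.10 (CENPP), -0.54 to 0.19 (KNL1), -0.16 to 0.042 (SKA3) and -0.082 to 0.40 (ZWILCH). Sample quality weights, which gave DMSO 3 a weight of 0.020 against 2.02 to 2.46, called 5592 genes, the same 21 lower and 4 higher as without DMSO 3, and 26 and 2 pathway genes, with a median of -0.97 for checkpoint, passenger and spindle genes and ZWILCH at -0.072. Labels give no shared batch for a replicate number. Deviations of same-numbered libraries from their group means had correlations of -0.19, 0.14 and -0.01. These cannot decide whether libraries were paired, since the DMSO mean includes the outlying DMSO 3. With CAPE 1, for instance, DMSO 1 and DMSO 2 gave -0.19 and -0.18, and DMSO 3 gave 0.20. With the replicate block 0 genes, 0 of the 39 and 0 pathway genes were called (1384 genes and 11 of the 39 had an unadjusted p under 0.05), and KNL1 and SKA2 were at 0.15 and 0.02.

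The DESeq2 Wald test called 856 genes in either direction, 10 of the 39 lower (adding CDCA8, BIRC5 and HMMR) and 15 pathway genes lower, with CENPN and CENPP at -0.012 each. A length adjustment called 408 genes, 3 of the 39 and 11 pathway genes, with a centromere median of -0.014 and CENPH and SKA2 at 0.038 and 0.12. No count filter left 5 of the 39, where 194 of all 21660 genes tested passed in either direction. On log2(TPM + 1), 120 genes, 2 of the 39 and 4 pathway genes passed, with centromere and outer kinetochore medians of 0.29 and 0.41 and -0.60 for the rest. With a pseudocount of 0.1 these were 93, 2, 4, 0.32, 0.45 and -0.60, and with no TPM filter 64, 0, 3, 0.29, 0.41 and -0.60. On both TPM filters with pseudocount 1, the genes that turned positive were CENPH (0.22), CENPI (0.29), CENPL (0.31), CENPO (0.56), NUF2 (0.20), NSL1 (0.20), KNL1 (0.41), ZWINT (0.21), SKA2 (0.51), SKA3 (0.48), BUB3 (0.053) and TTK (0.17). With 0.1 they were at 0.22, 0.34, 0.35, 0.59, 0.22, 0.21, 0.45, 0.21, 0.52, 0.52, 0.054 and 0.19. Over all genes tested the median log2 fold change was 0.33 with pseudocount 1, 0.39 with 0.1 and 0.16 with no TPM filter, against -0.01 on counts. The cause was not tested. Settings chosen after seeing the data, both without DMSO 3, were the DESeq2 test (4505 genes, 20 lower and 3 higher, 26 and 2 pathway genes, median -0.98, ZWILCH -0.089) and limma on log2(TPM + 1). The limma fit gave 2893 genes, 17 lower and 1 higher, 24 and 1 pathway genes, class medians of -0.043 and -0.97, and CENPN, CENPO, ZWINT and ZWILCH at -0.073, 0.27, 0.0029 and -0.042.

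The largest SEs with 6 libraries, such as 0.53 for KNL1 and CENPM, belonged to genes in which DMSO 3 departed from DMSO 1 and DMSO 2. The lowest counts were in CAPE, 144 for PSRC1 and 151 for CENPA, and both passed in edgeR with and without DMSO 3. With 2 DMSO libraries left, the spread within DMSO rests on that pair.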

Other observations

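Among pathway genes outside the 39, HJURP and OIP5, which take part in depositing CENPA, fell when DMSO 3 was left out. In that fit 20.8% of all 13919 genes tested were lower. HJURP, the CENPA chaperone, measured 42.2, 44.0 and 44.4 CPM in CAPE, against 65.9, 70.3 and 71.0 CPM in DMSO, and its log2 level fell by 0.65 without DMSO 3 (edgeR, SE 0.06, adjusted p = 8.38e-07). OIP5, which licenses the site for new CENPA, fell by 0.61 (SE 0.09, adjusted p = 5.87e-05). Neither passed with 6 libraries, where the adjusted p was 0.0734 and 0.151. MIS18A, a partner of OIP5, was at -0.11 and did not pass in either fit. The other CCAN genes CENPC, CENPS, CENPT and CENPX did not pass in either fit, at -0.15, -0.15, 0.09 and -0.13 without DMSO 3.

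Of the augmin complex, which branches microtubules in the spindle, HAUS6 rose and HAUS7 fell without DMSO 3. Over all 13919 genes tested in that fit, 20.8% were lower and 20.4% higher, so these single calls say little. HAUS6 measured 147, 141 and 148 CPM in CAPE, against 92.5, 91.6 and 37.4 CPM in DMSO, with no overlap, and rose by 0.66 (SE 0.05, edgeR adjusted p = 5.95e-08). HAUS7 fell by 0.25 (SE 0.07, adjusted p = 0.0113), and the other 6 subunits lay between -0.14 and 0.11 and did not pass. NDEL1, a dynein regulator, was the second riser of the list, with 65.4, 63.8 and 63.8 CPM in CAPE, against 54.2, 53.5 and 49.5 CPM in DMSO (0.25, SE 0.06, adjusted p = 0.00237). With 6 libraries HAUS6 and NDEL1 did not pass (adjusted p = 0.267 and 0.326).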
